A study of Homo sapiens with 17 samples.

Results

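The genes described here are the canonical histone genes of IMR90 ER:RAS cells, taken as every gene row whose current symbol begins with H1-, H2AC, H2BC, H3C or H4C followed by a digit. The rule found 92 of 62754 genes. Of these, 70 are replication-dependent histone genes, 17 are histone pseudogenes and 4 are linker histone genes that are not replication-dependent. The other 1 is a non-coding antisense RNA, H1-10-AS1, whose gene overlaps that of H1-10 on the opposite strand. Among the 70 were 6 H1, 17 H2A, 19 H2B, 13 H3 and 15 H4 genes, 55 of them on chromosome 6, 13 on chromosome 1 and 1 each on chromosomes 12 and 21. IMR90 ER:RAS is a line of human lung fibroblasts that carries a RAS oncogene under the control of 4-hydroxytamoxifen (4OHT), through fusion with part of the oestrogen receptor, and adding the drug turns RAS on and drives the cells into senescence. All cells were reverse-transfected with siRNA 1 day before treatment, and RNA was taken 7 days after 4OHT or its solvent control, DMSO. The groups were DMSO with non-targeting siRNA (DMSO siNT, n = 5), 4OHT with non-targeting siRNA (4OHT siNT, n = 6) and 4OHT with siRNA against SMARCA4 (4OHT siSMARCA4, n = 6), each with siRNA numbers 2 and 4. No DMSO library with siSMARCA4 was analysed here, so the effect of the knockdown in growing cells is not known from these data. The labels do not say whether libraries came from separate cultures, and p-values then measure only the spread between these libraries.

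The libraries were made from poly(A)-selected RNA with strand kept, and each held 39109479 to 68978119 counts. SMARCA4, an ATPase of SWI/SNF remodellers and the target of the siRNA, was at 198 ± 19.2 CPM (counts per 1e+06 counts, library sizes scaled by TMM factors) in DMSO siNT, 268 ± 13.2 in 4OHT siNT and 88.1 ± 22.8 in 4OHT siSMARCA4 (SD), and fell by 1.61 ± 0.13 on the log2 scale upon knockdown (SE, adjusted p = 5.14e-07, edgeR). Fibroblast markers summed to 28924 to 35036 CPM in DMSO siNT, 17851 to 27793 CPM in 4OHT siNT and 9395 to 16556 CPM in 4OHT siSMARCA4, whereas epithelial markers summed to at most 1.29 CPM and blood cell markers to at most 0.471 CPM. Endothelial markers were low but moved with 4OHT, at 0.856 to 1.955 CPM in DMSO siNT and 3.95 to 5.94 CPM in 4OHT siNT without overlap, and all 3 tested of the 4 were called higher (median 1.76, where 27% of all genes tested were called higher), while the epithelial sum was 0.722 to 1.29 CPM in DMSO siNT and 0.269 to 0.549 CPM in 4OHT siNT. The part of these shifts, and of the mitochondrial share (2.87% to 3.46% in DMSO siNT, 4.53% to 5.50% in 4OHT siNT), in the histone results was not tested. The library of siRNA number 4 tagged 3V in 4OHT siSMARCA4 stood apart, with 79.0 CPM over a list of RNAs that carry no poly(A) tail (14.3 to 34.6 CPM in the other libraries) and 7.81% mitochondrial counts.

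Replication-dependent histone genes supply the nucleosome cores and linker histones that a cell needs while it copies its DNA. Unlike other mRNAs, theirs normally end without a poly(A) tail: the pre-mRNA is cut just after a conserved stem-loop, which stem-loop binding protein (SLBP) holds, and the mature mRNA is degraded when DNA synthesis stops. A minority of transcripts runs past the stem-loop to a downstream polyadenylation signal, and such polyadenylated forms are known from cells that have left the cell cycle or differentiated. A poly(A)-selected library therefore sees the polyadenylated forms and whatever tailless RNA escapes the selection, not the bulk of histone mRNA in dividing cells. No value below measures histone protein or total histone mRNA.

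The stem-loop was searched as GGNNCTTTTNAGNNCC within 150 bases after the stop codon on the coding strand of GRCh38, and 66 of the 70 replication-dependent genes held it, 23 to 68 bp past the stop. H2BC10, H2BC12L, H3C6 and H4C13 held no match. Below are the stem-loops of genes with high levels, large rises or falls, and near-identical copies, 5′ to 3′ on the coding strand, with the 16 bases of the stem-loop in capitals and 5 flanking bases on each side.
H2BC12 (chr6:27146361-27146386, minus strand): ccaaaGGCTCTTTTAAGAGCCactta
H2AC6 (chr6:26124664-26124689, plus strand): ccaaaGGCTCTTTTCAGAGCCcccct
H2AC18 (chr1:149842218-149842243, minus strand): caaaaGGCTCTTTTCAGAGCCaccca
H2AC19 (chr1:149851569-149851594, plus strand): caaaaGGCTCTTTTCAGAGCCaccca
H2BC26 (chr1:228458533-228458558, plus strand): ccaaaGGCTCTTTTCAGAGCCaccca
H2BC8 (chr6:26216213-26216238, minus strand): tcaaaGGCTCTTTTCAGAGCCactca
H2BC9 (chr6:26252050-26252075, plus strand): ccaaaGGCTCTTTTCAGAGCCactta
H2AC11 (chr6:27133510-27133535, plus strand): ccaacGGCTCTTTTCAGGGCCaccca
H1-2 (chr6:26055739-26055764, minus strand): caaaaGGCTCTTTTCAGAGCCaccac
H4C5 (chr6:26204996-26205021, plus strand): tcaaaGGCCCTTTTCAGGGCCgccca
H4C16 (chr12:14770719-14770744, minus strand): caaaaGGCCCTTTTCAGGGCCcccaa
H4C14 (chr1:149833027-149833052, plus strand): ccaaaGGCCCTTTTTAGGGCCgacca
H4C15 (chr1:149860764-149860789, minus strand): ccaaaGGCCCTTTTTAGGGCCgacca
All 14 H4 stem-loops began with GGCCC, and 51 of the 52 in the other classes began with GGCTC. The last base of the loop was C in 52 genes, A in 9 and T in 5. H2BC8, which rose after 4OHT, and H2BC9, which fell, held the same 16 letters, and the sequences of H2AC18 and H2AC19, like those of H4C14 and H4C15, were identical over the 26 bases.

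The genes also differed in the annotation downstream. For 16 of the 66 genes with a stem-loop, GENCODE 44 lists a transcript that runs more than 100 bp past it, by 430 to 37155 bp of genome including introns, and for the other 50 the longest transcript ended within 18 bp. H2BC4 (chr6:26086317-26123926), H2AC25 (chr1:228434777-228457873), H2BC18 (chr1:149782689-149812373) and H4C8 (chr6:26277609-26285638) are examples of the former, with 2 or 3 exons in their longest models. H2BC12 (chr6:27146361-27146855), H2AC18 (chr1:149842218-149842750), H2BC8 (chr6:26216200-26216688) and H2AC8 (chr6:26216921-26217437) are single-exon genes that end 5 to 18 bp past the stem-loop.

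Promoters were taken from RefSeq (GRCh38.p14, 300 bases, from 250 before to 50 after each start), with 72 promoters for 67 of the 92 genes. Histone promoters are known for an octamer that POU domain factors bind, for CCAAT boxes and for TATA boxes, and these were searched on both strands as ATTTGCAT, CCAAT and TATAAA, of which TATAAA can overlap its own reverse complement. The octamer was in 37.5% of the histone promoters against 1.77% of all 35116 promoters, and in 68.8% of H2A and 75% of H2B promoters, 7.69% of H3 promoters and no H1 or H4 promoter. CCAAT was in 83.3% against 34.6% of all, at 100% in H2A, H2B and H3 and 23.1% in H4, and TATAAA in 63.9% against 11.5% of all. Here are the promoter of H2BC8, which rose after 4OHT, that of H2BC9, which fell, and that of H4C5, which rose and holds none of the 3 motifs, 5′ to 3′ with motif matches on either strand in capitals.
H2BC8 (chr6:26216639-26216938, minus strand): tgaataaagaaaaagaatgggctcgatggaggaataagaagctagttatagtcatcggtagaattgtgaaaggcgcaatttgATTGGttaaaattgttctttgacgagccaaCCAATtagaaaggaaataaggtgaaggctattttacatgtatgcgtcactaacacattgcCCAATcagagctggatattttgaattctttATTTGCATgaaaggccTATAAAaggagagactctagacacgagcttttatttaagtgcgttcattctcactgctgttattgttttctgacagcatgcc
H2BC9 (chr6:26251364-26251663, plus strand): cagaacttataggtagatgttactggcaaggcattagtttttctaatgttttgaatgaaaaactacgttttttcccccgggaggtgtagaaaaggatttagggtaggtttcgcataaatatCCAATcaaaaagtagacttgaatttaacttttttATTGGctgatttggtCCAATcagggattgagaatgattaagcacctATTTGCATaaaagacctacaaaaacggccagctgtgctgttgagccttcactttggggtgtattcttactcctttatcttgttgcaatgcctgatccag
H4C5 (chr6:26204360-26204659, plus strand): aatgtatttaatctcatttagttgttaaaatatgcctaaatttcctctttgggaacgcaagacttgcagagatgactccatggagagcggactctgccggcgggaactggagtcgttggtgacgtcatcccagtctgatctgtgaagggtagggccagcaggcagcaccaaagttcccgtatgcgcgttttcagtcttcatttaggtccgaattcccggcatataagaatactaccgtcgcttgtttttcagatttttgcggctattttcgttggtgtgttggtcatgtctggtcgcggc
H2BC8 and H2BC9 each hold 1 octamer match and 3 CCAAT matches, and TATAAA is in H2BC8 only.

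Most of the histone counts in these libraries came from few genes. Of the 92, 42 had enough counts to be tested, including 37 of the 70 replication-dependent genes, and 9 had no count in any library. Summed over the 70, the level was 319 ± 39.8 CPM in DMSO siNT, and H2AC6, H2BC12 and H2BC21 alone gave 59.1% ± 1.70 of it (SD, n = 5). The same 3 genes gave 52.4% ± 0.638 in 4OHT siNT and 50.5% ± 2.52 in 4OHT siSMARCA4 (SD, n = 6 each), and the 10 highest genes of each group gave 89.5%, 88.1% and 87.6%. Per length, as CPM per kb of exon, H2BC12 was the highest of the 70 in 4OHT siNT at 176, followed by H2AC18 at 75.4, H2AC6 at 45.3, H2AC19 at 39.5, H2BC21 at 39.2, H1-2 at 28.8 and H2BC8 at 22.6. In DMSO siNT the order was H2BC12 at 127, H2AC6 at 46.4, H1-2 at 45.0 and H2AC18 at 29.0 CPM per kb.

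Genes with an annotated transcript past the stem-loop had the higher median level per length, 2.40 against 0.166 CPM per kb in 4OHT siNT, and 15 of these 16 genes passed the filter on low counts against 21 of the other 50. The ranges overlapped throughout: the highest single gene in each group of libraries, H2BC12, has no such transcript annotated. The share of reads that lie past the stem-loop is not in gene-level counts.

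**Figure D1:**
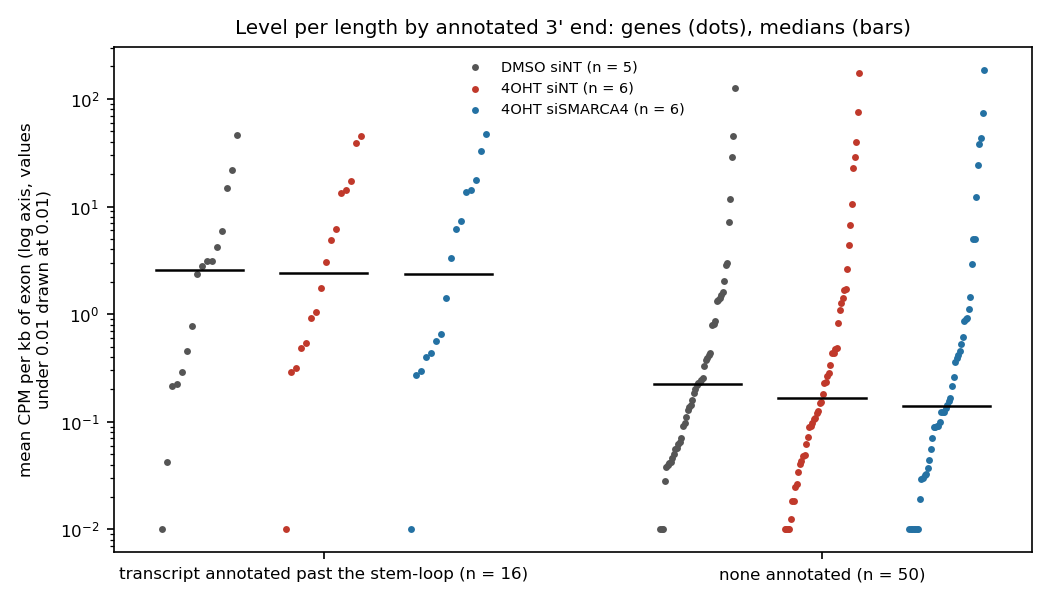
Mean CPM per kb of exon (log axis) of the 66 replication-dependent histone genes with a stem-loop match, split by whether GENCODE 44 lists a transcript more than 100 bp past the stem-loop, in DMSO siNT, 4OHT siNT and 4OHT siSMARCA4. Dots are genes and bars are medians; the median of the 16 genes with such a transcript lies above that of the other 50, but the highest genes are among the 50.

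**Figure D2:**
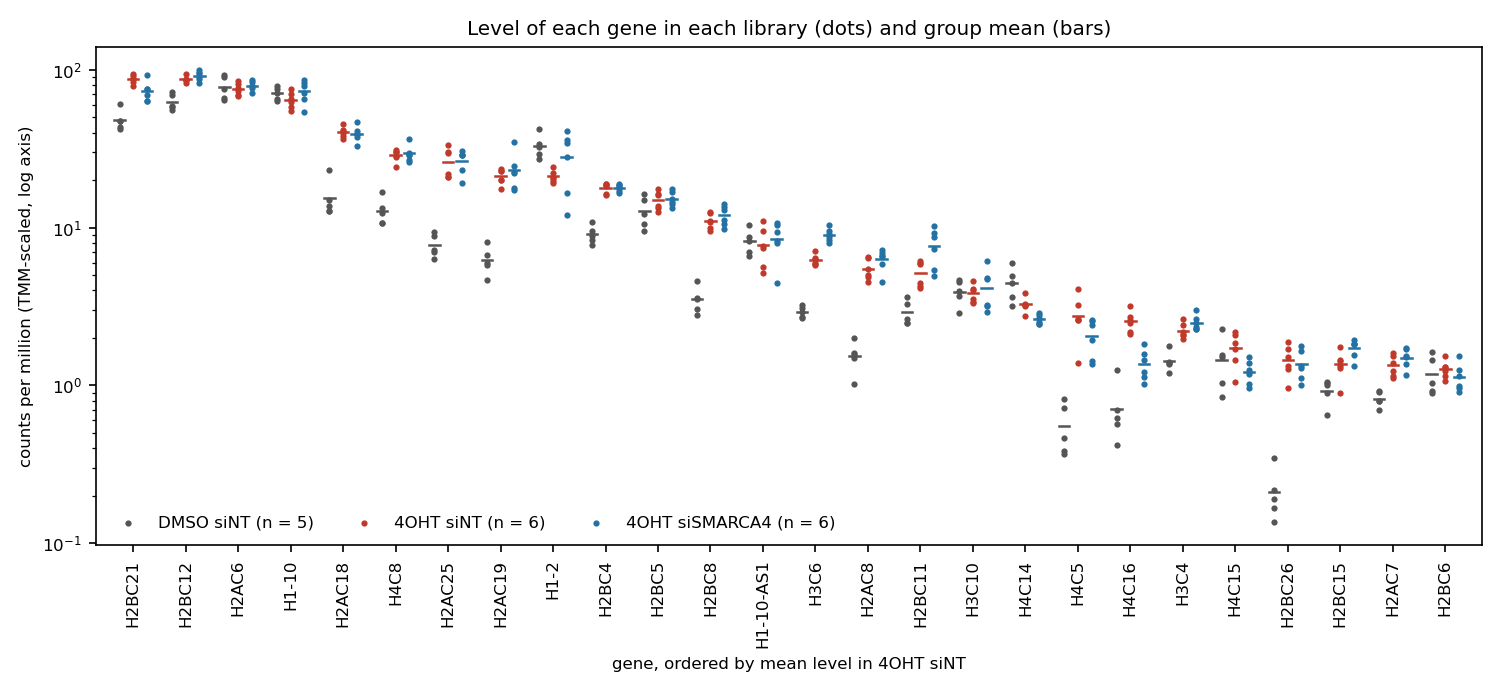
CPM of 26 named genes with a mean of at least 1 CPM in some group (log axis) in every library, as dots, with the group mean as a bar. H2BC21, H2BC12, H2AC6 and the replication-independent H1-10 lie highest, and in H2BC26, H4C5 and H4C16 the 6 4OHT siNT libraries all lie above the 5 DMSO siNT libraries.

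After 4OHT, many of these genes had higher levels in the poly(A)-selected libraries. Gene counts do not separate polyadenylated transcripts from tailless mRNA that escaped the selection, so the form that rose is not known from them. In 4OHT siNT against DMSO siNT, 20 of the 42 genes tested were called higher and 4 lower (edgeR's quasi-likelihood test, Benjamini-Hochberg adjusted p below 0.05 over all genes), where 27% of all 19473 genes tested were called higher and 27.4% lower. The median log2 fold change was 0.48 over the 42 genes and 0.00 over all genes. Without the low-count filter it was 0.10 over the histone genes with any count and 0 over all genes. The 42 are those with enough counts in at least part of the libraries, so their count says nothing of the other 50. By class, 9 of 12 H2B, 5 of 10 H2A, 4 of 9 H4, 2 of 4 H3 and 0 of 2 H1 genes tested were called higher, and 1 gene each of H2B, H2A, H4 and H1 was called lower. In bulk RNA, fewer cells that express a gene and less RNA per cell cannot be told apart.

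Summed by library, the replication-dependent genes gave 286, 291, 292, 360 and 364 CPM in DMSO siNT and from 451 to 495 CPM in 4OHT siNT, with a median of 479. The ranges did not overlap. The H2B sum was 127 to 166 CPM in DMSO siNT and 221 to 239 CPM in 4OHT siNT, and the H2A sum went from 111 ± 17.5 to 172 ± 12.3 CPM. The H4 sum went from 21.9 ± 3.56 to 41.0 ± 3.21 CPM, the H3 sum from 9.16 ± 0.625 to 13.0 ± 0.825 CPM and the H1 sum from 33.3 ± 5.78 to 21.4 ± 1.79 CPM (SD, n = 5 and 6). These sums are descriptions without a test.

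**Figure D3:**
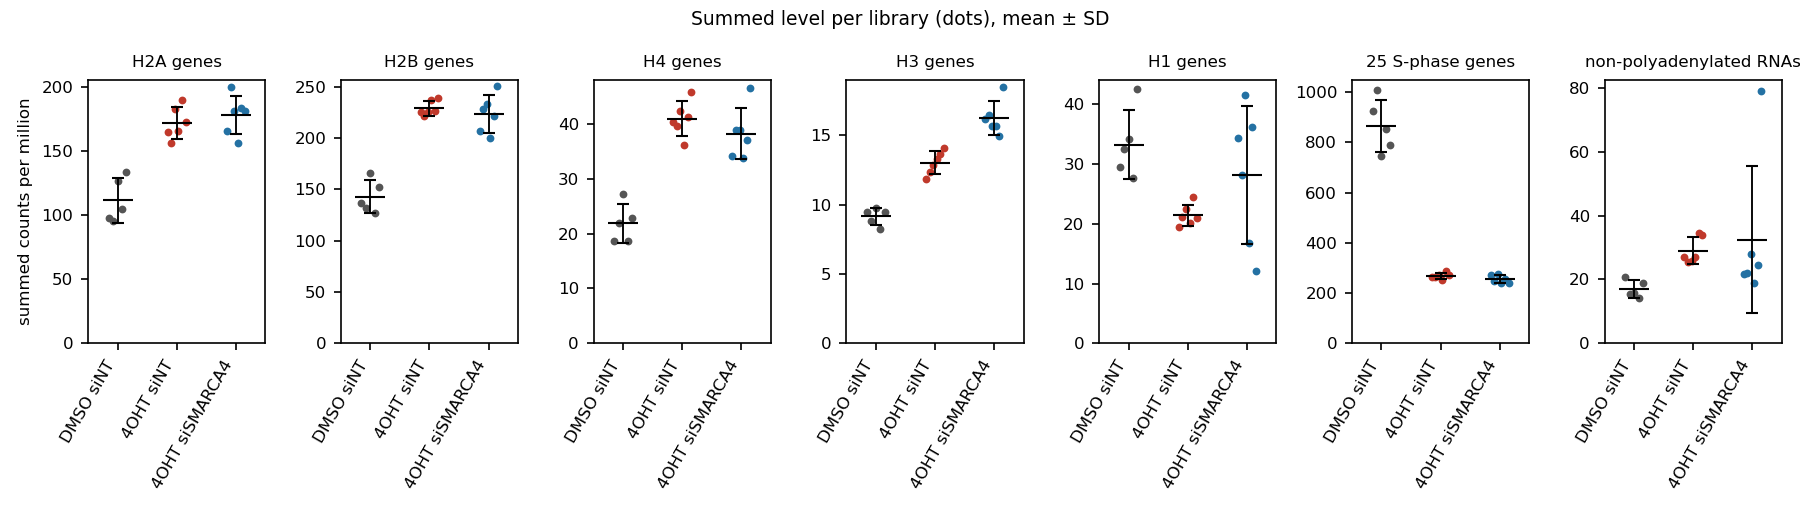
Summed CPM per library (dots) with mean and SD (bars) for the replication-dependent genes of each histone class, for 25 genes of S phase and for RNAs without a poly(A) tail. The H2A, H2B, H3 and H4 sums lie higher in 4OHT siNT than in DMSO siNT and the S-phase sum lies lower; 1 library of 4OHT siSMARCA4, at 79.0 CPM, stands apart in the last panel.

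Over the same comparison, all 25 genes of a list of DNA replication and S phase were called lower, with a median log2 fold change of -2.06, where 27.4% of all genes tested were called lower. The replication factor MCM2 went from 28.0 ± 5.32 to 7.04 ± 0.958 CPM, the ribonucleotide reductase subunit RRM2 from 73.8 ± 13.1 to 4.7 ± 0.714 CPM, and the proliferation marker MKI67 from 45.2 ± 19.3 to 0.879 ± 0.261 CPM (SD, n = 5 and 6). The H2A, H2B, H3 and H4 sums were thus higher in the libraries in which S-phase transcripts were low.

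RNAs that are known to lack a poly(A) tail were also higher after 4OHT. Of a list of 24 such RNAs (7SK, 7SL, U snRNAs, snoRNAs and the like), 12 were tested, 8 of them were called higher and 0 lower, and the median log2 fold change was 0.98. Over all genes tested, 27% were called higher and 27.4% lower. Their summed level ran from 14.3 to 20.6 CPM in DMSO siNT and from 25.5 to 34.6 CPM in 4OHT siNT, without overlap. With the log2 of that sum as a covariate in the fit, the count of histone genes called higher was 20, as without it. That fit holds the 4OHT siSMARCA4 library at 79.0 CPM, the extreme of the covariate. Without that library, a setting chosen after seeing the data, the fit with the covariate called 13 histone genes higher and 1 lower, and H2BC12 (0.33, adjusted p = 0.0729), H2BC18 (0.97, adjusted p = 0.206), H2BC11 (0.35, adjusted p = 0.439), H2BC15 (0.60, adjusted p = 0.211), H2AC7 (0.61, adjusted p = 0.124) and H3C4 (0.55, adjusted p = 0.117) were among those no longer called higher. The fold changes of H2BC15, H2AC7 and H3C4 thus stayed near those of the fit without the covariate (0.55, 0.70 and 0.64), and that of H2BC11 did not (0.82). How many of all genes the covariate fit without that library called is not given here. The drop to 13 can therefore not be read as particular to the histone genes. As the sum did not overlap between DMSO siNT and 4OHT siNT, its part and that of 4OHT in the histone results cannot be told apart.

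Among the H2B genes, which encode the partner of H2A in the nucleosome core, H2BC26 (chr1:228458103-228463104) had the largest rise of the 42 genes tested. Its levels were 0.136, 0.168, 0.192, 0.219 and 0.347 CPM in DMSO siNT and 0.966 to 1.88 CPM in 4OHT siNT, with a median of 1.43. No DMSO siNT library came near the lowest 4OHT siNT library, and the log2 fold change was 2.75 ± 0.25 (SE, adjusted p = 3.23e-08, edgeR). H2BC8 stood at 2.81, 3.06, 3.51, 3.58 and 4.61 CPM in DMSO siNT and at 9.49 to 12.6 CPM in 4OHT siNT, a log2 fold change of 1.65 ± 0.13 (SE, adjusted p = 6.07e-09, edgeR). H2BC7 was a gene of low level, at 0.0336, 0.0775, 0.0873, 0.119 and 0.226 CPM in DMSO siNT and 0.183 to 0.795 CPM in 4OHT siNT. Its ranges overlapped, the log2 fold change was 2.25 ± 0.46 (SE, adjusted p = 3.72e-04, edgeR), and within the siRNA number 2 libraries alone it was 1.08 (adjusted p = 0.0977).

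The H2B genes of high level rose by less. H2BC21 had 41.9, 43.4, 47.4, 47.4 and 60.7 CPM in DMSO siNT and 79.1 to 94.5 CPM, median 87.5, in 4OHT siNT. The groups did not overlap, with a log2 fold change of 0.86 ± 0.11 (SE, adjusted p = 1.45e-06, edgeR). H2BC12 had 55.4, 58.3, 58.8, 69.1 and 72.6 CPM in DMSO siNT and 82.4 to 93.6 CPM in 4OHT siNT, again without overlap, and rose by 0.47 ± 0.08 (SE, adjusted p = 3.53e-05, edgeR). H2BC12 shares 17.9% of its read-length stretches of 110 bases with H2BC12L, so that counts between them are uncertain. H2BC4 rose by 0.98, H2BC11 by 0.82, H2BC18 by 1.26 and H2BC15 by 0.55 on the log2 scale, whereas H2BC5 at 0.23 (95% interval -0.03 to 0.49) and H2BC6 at 0.09 (-0.28 to 0.46) were not called. Without the DMSO siNT library of siRNA number 4 tagged 3VM, H2BC5 was called at 0.34 (adjusted p = 0.0345). H2BC18 was not called within the siRNA number 2 libraries (0.43, adjusted p = 0.272), nor was H2BC11 within the siRNA number 4 libraries (0.43, adjusted p = 0.232). The call of H2BC15 held under 18 of 24 alternatives and was lost in the siRNA number 2 libraries alone (0.43, adjusted p = 0.176), in the siRNA number 4 libraries alone (0.52, adjusted p = 0.0947), in VM libraries alone (0.37, adjusted p = 0.152) and without the DMSO siNT library of siRNA number 2 tagged 1V (0.42, adjusted p = 0.0576).

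Of the H2A genes, H2AC8, H2AC19, H2AC25, H2AC18 and H2AC7 were called higher. H2AC8 had 1.03, 1.49, 1.57, 1.61 and 2.00 CPM in DMSO siNT and 4.51 to 6.49 CPM, median 5.23, in 4OHT siNT, with a log2 fold change of 1.82 ± 0.16 (SE, adjusted p = 2.54e-08, edgeR). H2AC25 had 6.37, 7.01, 7.26, 8.88 and 9.32 CPM in DMSO siNT and 20.8 to 33.2 CPM, median 25.7, in 4OHT siNT, with a log2 fold change of 1.75 ± 0.16 (SE, adjusted p = 2.47e-08, edgeR). In both genes every 4OHT siNT library lay above every DMSO siNT library. The 4OHT siNT libraries of H2AC25 split by siRNA number, at 29.5 to 33.2 CPM with number 2 and 20.8 to 22.0 CPM with number 4. The median lies in the gap between them. H2AC18 and H2AC19 encode the same H2A and share 99.8% to 100% of their read-length stretches, so their counts were split by the counting model. Summed to 1 row, they rose by 1.5 on the log2 scale (adjusted p = 4.69e-09, edgeR). H2AC6, the highest H2A gene by CPM, overlaps exons of an unnamed gene on its own strand. It had 64.0, 65.9, 75.5, 89.3 and 92.3 CPM in DMSO siNT and 68.2 to 84.6 CPM in 4OHT siNT. The 4OHT siNT range lay within the DMSO siNT range, and the log2 fold change of -0.04 was not called (95% interval -0.22 to 0.15). H2AC7 (0.70) overlaps exons of another unnamed gene on its own strand, and was not called in the siRNA number 2 libraries alone (0.44, adjusted p = 0.101).

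Of the 9 tested H4 genes 4 were called higher and 1 lower, and the lower call was lost when near-identical copies were summed. H4C5 had 0.367, 0.386, 0.465, 0.716 and 0.815 CPM in DMSO siNT and 1.39 to 4.11 CPM, median 2.62, in 4OHT siNT, and rose by 2.33 ± 0.29 (SE, adjusted p = 1.44e-06, edgeR). H4C16, the H4 gene on chromosome 12, had 0.420, 0.572, 0.620, 0.698 and 1.25 CPM in DMSO siNT and 2.13 to 3.16 CPM in 4OHT siNT, and rose by 1.84 ± 0.24 (SE, adjusted p = 2.27e-06, edgeR). H4C8, the most abundant H4 gene, went from 12.7 ± 2.47 to 28.7 ± 2.42 CPM (SD, n = 5 and 6), a log2 fold change of 1.17. The fourth H4 gene called higher, H4C3 at 1.09, is named after its value was seen. H4C14 was called lower at -0.45 while H4C15, which shares 94.3% to 100% of its read-length stretches with H4C14, was at 0.26 and not called. Summed to 1 row the pair was at -0.24 (adjusted p = 0.0543, edgeR), which missed the threshold. H4C11 (-0.68) and H4C12 (-0.09), which share about 90% of their stretches (90.4% and 91.0%), were not called. Without the DMSO siNT library of siRNA number 2 tagged 1V, H4C11 was called at -0.84 (adjusted p = 0.033).

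H3 genes were few above the filter. H3C6 (chr6:26224199-26227473), which holds no stem-loop match, had 2.69, 2.71, 2.91, 3.09 and 3.22 CPM in DMSO siNT and 5.83 to 7.12 CPM in 4OHT siNT. The ranges lay well apart, and the log2 fold change was 1.10 ± 0.09 (SE, adjusted p = 1.35e-08, edgeR). H3C4, which overlaps exons of the same unnamed gene as H2AC7, rose by 0.64 but was not called in the siRNA number 4 libraries alone (0.54, adjusted p = 0.0738), and H3C10 at -0.04 (95% interval -0.40 to 0.32) was not called.

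Of the 6 replication-dependent linker histone genes 2 were tested. H1-2, the linker histone gene of highest level among the replication-dependent ones, had 27.1, 29.2, 32.2, 33.8 and 42.2 CPM in DMSO siNT and 19.1 to 24.3 CPM, median 20.6, in 4OHT siNT. Every 4OHT siNT library lay below every DMSO siNT library, with a log2 fold change of -0.64 ± 0.23 (SE, adjusted p = 0.0239, edgeR). Without the DMSO siNT library of siRNA number 4 tagged 3VM, the highest, it was -0.54 (adjusted p = 0.0691), and with the non-polyadenylated RNA sum as a covariate -0.30 (adjusted p = 0.392). That covariate fit, without the 4OHT siSMARCA4 library of siRNA number 4 tagged 3V, gave -1.32 (adjusted p = 0.00172), so that 1 library set the value. H1-2 was also not called with the sparse-repeat counts as a covariate (-0.50, adjusted p = 0.053) or in the siRNA number 4 libraries alone (-0.82, adjusted p = 0.105), and its call held under 20 of 24 alternatives. The other tested gene, H1-4, which is named after its value was seen, was at 0.160 ± 0.0374 CPM in DMSO siNT and at 0.50 on the log2 scale, not called (95% interval -0.40 to 1.41). H1-10, a replication-independent linker histone gene whose mRNA is normally polyadenylated, was at -0.14 (95% interval -0.36 to 0.08) and not called. H1-10-AS1 was at -0.08 and not called. Within the siRNA number 2 libraries alone both were called lower, H1-10 at -0.34 (adjusted p = 0.0138) and H1-10-AS1 at -0.62 (adjusted p = 0.0081).

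The remaining falls were in genes of low level. H2BC9 had 0.504, 0.617, 0.642, 0.663 and 0.822 CPM in DMSO siNT and 0.0523 to 0.483 CPM, median 0.207, in 4OHT siNT, without overlap, and fell by 1.52 ± 0.36 on the log2 scale (SE, adjusted p = 0.00154, edgeR). H2AC11, at 0.397 ± 0.227 CPM in DMSO siNT and 0.216 ± 0.0821 CPM in 4OHT siNT (SD, n = 5 and 6), was called at -0.85 (adjusted p = 0.0445), a call held under 9 of 24 alternatives and lost without any of 7 of the 11 libraries. H2BC9 was at -0.997 (adjusted p = 0.0609) in the siRNA number 4 libraries alone.

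The 50 genes that did not pass the filter gave little RNA: together 2.15 ± 0.114 CPM in DMSO siNT, 1.73 ± 0.533 in 4OHT siNT and 1.46 ± 0.273 in 4OHT siSMARCA4 (SD). Fitted without any filter, H2AC14 (32 counts over the DMSO siNT libraries against 2 over the 4OHT siNT libraries), H1-5 (30 against 6), H3C3 (52 against 15), H3C8 (25 against 4) and the pseudogene H1-9P (35 against 5) were called lower, and H3C15 (9 against 43) and the pseudogene H3C5P (1 against 23) higher. These 7 were named for that result after it was seen. H3C15 has a near-identical copy, H3C14, between which the counting can move reads. H2AC14 shares 60.8% of its read-length stretches with H2AC13, so its counts are uncertain in the same way.

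**Figure D4:**
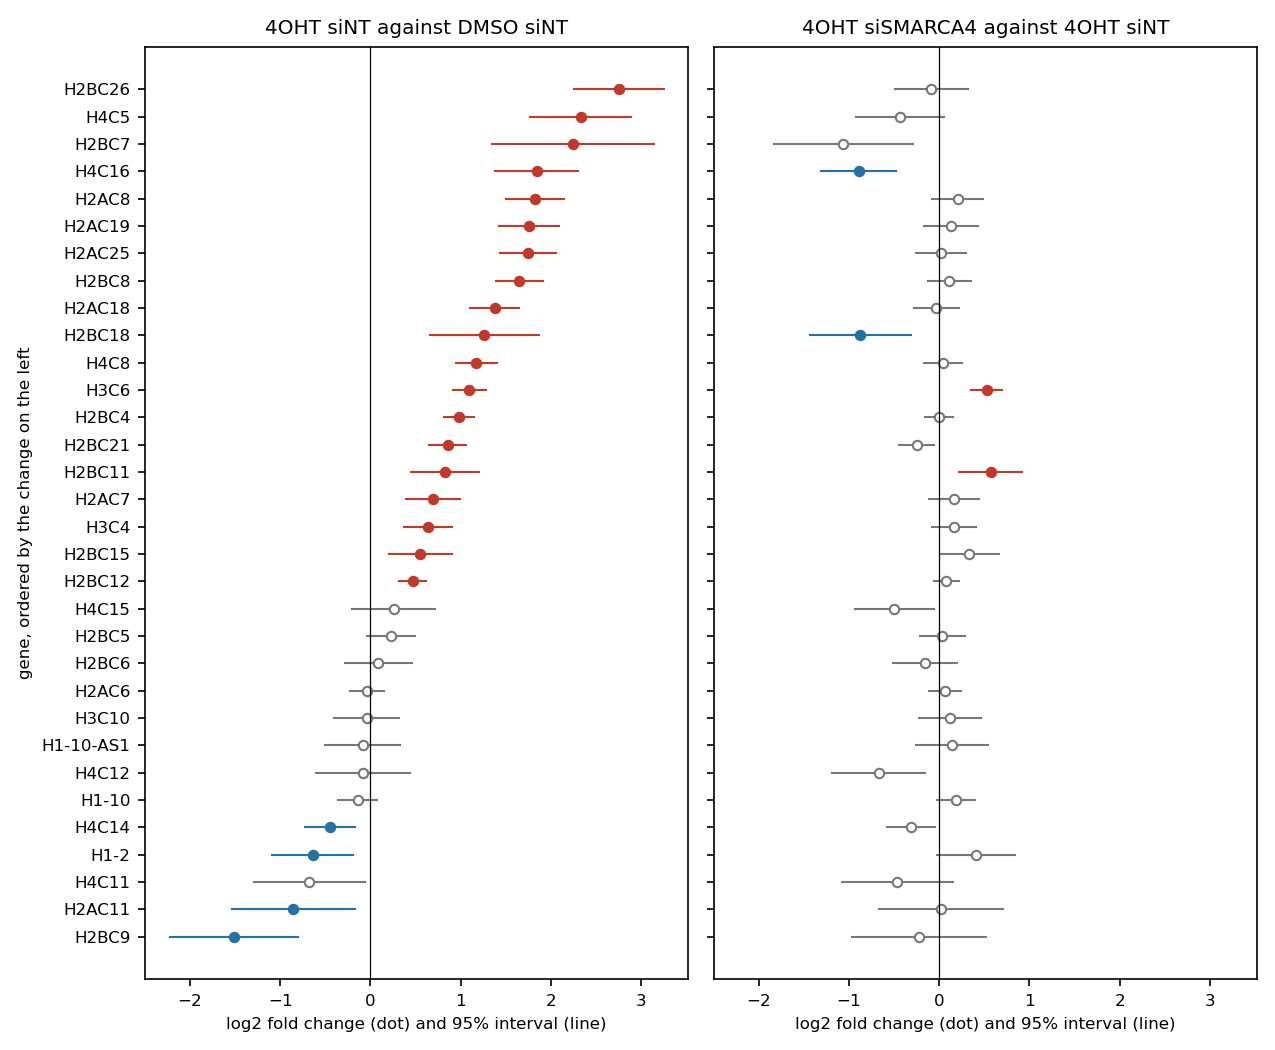
Log2 fold changes of 32 named genes in 4OHT siNT against DMSO siNT (left) and in 4OHT siSMARCA4 against 4OHT siNT (right), with 95% intervals as lines, filled where called at an adjusted p below 0.05 (red higher, blue lower). On the left most H2B and H2A genes lie to the right of 0, up to 2.75 for H2BC26, and on the right 4 genes are called.

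Many H2A and H2B genes lie head to head and share the sequence between their starts. There were 14 such pairs with starts at most 1000 bp apart (170 to 979 bp), 12 of them an H2A with an H2B gene, and in 7 both genes were tested. In 3 pairs both genes were called higher after 4OHT: H2AC25 with H2BC26 (1.75 and 2.75), H2AC8 with H2BC8 (1.82 and 1.65) and H2AC7 with H2BC7 (0.70 and 2.25). In 3 pairs the H2B gene was called higher and the H2A gene was not: H2BC4 at 0.98 beside H2AC6 at -0.04, H2BC21 at 0.86 beside H2AC20 at -0.06, and H2BC15 at 0.55 beside H2AC15 at 0.34. In the last pair, H2BC11 was called higher at 0.82 and H2AC11, which starts 248 bp away, lower at -0.85 (adjusted p = 0.0445, edgeR). The H2AC11 call was lost under most alternatives. In the siRNA number 4 libraries alone neither gene was called and H2AC11 changed sign. Over all genes tested, 27% were called higher and 27.4% lower. Genes that share the sequence between their starts thus had like values in some pairs and unlike values in others.

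**Figure D5:**
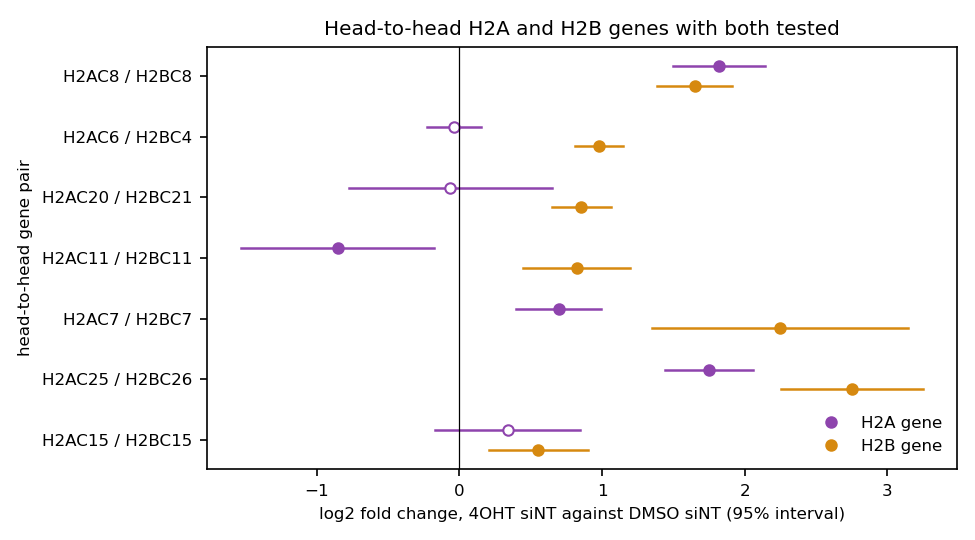
Log2 fold change in 4OHT siNT against DMSO siNT with its 95% interval for the 7 head-to-head pairs with both genes tested, H2A genes in purple and H2B genes in orange, filled where called. H2BC11 and H2AC11 lie on opposite sides of 0, and H2AC8 and H2BC8 have overlapping intervals.

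By promoter letters, 10 of the 15 tested replication-dependent genes with the octamer were called higher and 2 lower, with a median log2 fold change of 0.70, and of the 21 without it 9 were called higher and 2 lower, with a median of 0.35. The ranges, -1.52 to 2.25 and -0.68 to 2.75, overlapped. With CCAAT it was 16 of 28 called higher, without it 3 of 8. With TATAAA it was 10 of 22, without it 9 of 14. By annotation, 9 of the 15 tested genes with a transcript past the stem-loop were called higher and 1 lower, and of the 21 without one 10 were called higher and 3 lower, with medians of 0.82 and 0.47. None of these splits was tested. Of all 19473 genes tested, 27% were called higher and 27.4% lower. By chromosome, 6 of 9 genes tested on chromosome 1 and 13 of 27 on chromosome 6 were called higher.

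Of 27 genes for histone pre-mRNA processing and histone gene transcription, 12 (44.4%) were called higher and 7 (25.9%) lower after 4OHT, where 27% of all genes tested were called higher and 27.4% lower, with a median of 0.09. CASP8AP2 (FLASH), a processing factor at histone genes, went from 13.6 ± 2.17 to 7.98 ± 0.594 CPM and ERI1, the exonuclease that trims histone mRNA ends, from 29.2 ± 0.596 to 23.1 ± 1.94 CPM (SD, n = 5 and 6), and both were called lower (log2 -0.77 and -0.33). SLBP at -0.19 (adjusted p = 0.0882) and NPAT, the coactivator of histone transcription, at 0.01 (adjusted p = 0.951) were not called. The S-phase regulators E2F1 (-1.05) and CCNE2 (-3.23) fell and CCNE1 (0.40) rose. POU2F2, which encodes an octamer-binding factor and was singled out after its values were seen, went from 15.5 ± 1.55 to 215 ± 41.5 CPM, a log2 fold change of 3.79 ± 0.14 (SE, adjusted p = 2.13e-13, edgeR).

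Of the 15 replication-independent histone variant genes found, 11 were tested, 1 (9.09%) was called higher and 5 (45.5%) lower, with a median of -0.21, against the same 27% and 27.4% of all genes. MACROH2A1 rose by 0.41 and H2AZ1 fell by 0.47 on the log2 scale, while H3-3A at -0.10, H3-3B at -0.21 and H2AJ, the H2A variant known to accumulate in senescent fibroblasts, at 0.26 were not called. Of 22 histone chaperones 6 (27.3%) were called higher and 11 (50%) lower. The chaperones of newly made histones CHAF1A (-0.65) and ASF1B (-4.22) fell, and HIRA, which deposits H3.3 outside S phase, rose by 0.19.

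Knockdown of SMARCA4 in 4OHT-treated cells changed few of these genes. In 4OHT siSMARCA4 against 4OHT siNT, which shares the 4OHT siNT libraries with the comparison above, 2 of the 42 genes were called higher and 2 lower, where 10.4% of all genes tested were called higher and 13.8% lower. The median log2 fold change was 0.01 over the 42 genes and -0.02 over all genes. The summed level of the replication-dependent genes was 423 to 512 CPM, median 501, over a range that held that of 4OHT siNT. Counts of sparse repeats far from genes were also higher, 70.6 to 198 CPM against 35.9 to 68.9 CPM. With them as a covariate 1 histone gene was called higher and 1 lower, while calls over all genes went from 4703 to 1343 of 19473. As the repeat counts did not overlap between these groups, their part and that of the knockdown cannot be told apart. Individual genes were not all held to narrow intervals: for the high-level genes the interval was within -0.06 and 0.22 for H2BC12 and within -0.11 and 0.25 for H2AC6, but for H2AC20 it ran from -0.60 to 0.76.

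H3C6 and H4C16 held the clearest differences. H3C6 had 7.99 to 10.3 CPM, median 8.95, in 4OHT siSMARCA4 against 5.83 to 7.12 CPM, median 6.12, in 4OHT siNT. Its ranges did not overlap, and it rose by 0.53 ± 0.09 (SE, adjusted p = 3.51e-04, edgeR) after its rise with 4OHT. H4C16 had 1.03 to 1.84 CPM, median 1.33, against 2.13 to 3.16 CPM, median 2.54. It fell by 0.89 ± 0.21 on the log2 scale (SE, adjusted p = 0.00565, edgeR), and against DMSO siNT it was at 0.95 (adjusted p = 0.00196), with overlapping ranges. Both calls held without each of the 12 libraries in turn, and were lost in the siRNA number 4 libraries alone, which gave 0.46 (adjusted p = 0.0781) for H3C6 and -0.88 (adjusted p = 0.0947) for H4C16. Over all genes, 1198 of 19909 were called in those libraries alone, against 4703 of 19473 in all libraries.

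The other calls were lost when single libraries were left out. H2BC11 had 4.92 to 10.2 CPM, median 8.01, against 4.12 to 6.10 CPM, with overlap, at 0.57 ± 0.18 (SE, adjusted p = 0.0261, edgeR), and was not called without any of the 4OHT siNT libraries 4-1VM, 4-2VM or 4-3VM (siRNA number and tag) or the 4OHT siSMARCA4 libraries 2-1VM, 2-3VM or 4-2VM (0.47 to 0.53, adjusted p from 0.0572 to 0.0733). It was not called in the siRNA number 4 libraries alone (0.61, adjusted p = 0.155). With the sparse-repeat counts, which did not overlap between these groups, as a covariate it was at 0.27 (adjusted p = 0.472). H2BC18 had 0.335 to 0.783 CPM against 0.680 to 1.42 CPM, at -0.87 ± 0.29 (SE, adjusted p = 0.0323, edgeR), and was not called without any of the same 4OHT siNT libraries or the 4OHT siSMARCA4 libraries 2-1VM, 2-3V or 4-2VM (-0.74 to -0.85, adjusted p from 0.0588 to 0.085). Its call held under 13 of 25 alternatives: it was at -0.41 (adjusted p = 0.378) in the siRNA number 2 libraries alone, -1.15 (adjusted p = 0.0543) in the number 4 libraries alone and -0.68 (adjusted p = 0.313) with the sparse-repeat covariate. H2BC7, at 0.101 to 0.319 CPM against 0.183 to 0.795 CPM, was at -1.06 and missed the threshold (adjusted p = 0.0559). By siRNA number H2BC7 was at -0.19 ± 0.46 with number 2 and at -1.70 ± 0.44 with number 4 (log2, SE, unadjusted p = 0.0306 and adjusted p = 0.267 for the difference, edgeR). Each value is against the 4OHT siNT libraries of its number, at 0.183 to 0.537 CPM for number 2 and 0.672 to 0.795 CPM for number 4. The 4OHT siSMARCA4 libraries were at 0.237 to 0.319 CPM and 0.101 to 0.307 CPM, with overlap. H2BC7 was called in the number 4 libraries alone (-1.66, adjusted p = 0.0412) and without the 4OHT siNT library 2-2VM or 2-3VM (-1.23 and -1.22, adjusted p = 0.0251 and 0.0238). H4C12 was at -0.67 (adjusted p = 0.0715), and was called without the 4OHT siSMARCA4 library 2-3V, its highest (-0.99, adjusted p = 0.00389), without the 4OHT siNT library 2-2VM (-0.77, adjusted p = 0.0432), among VM libraries alone (-1.07, adjusted p = 0.0113) and with the V or VM tag as a covariate (-0.95, adjusted p = 0.0195). Its counts are uncertain, as it shares 91% of its stretches with H4C11, and that pair was not summed to 1 row. H4C14 and H4C15, at -0.31 and -0.50, were not called singly, and their summed row was at -0.37 (adjusted p = 0.0105). H2BC21 was at -0.25 (adjusted p = 0.0751), and at -0.33 (adjusted p = 0.0123) without the library of siRNA number 4 tagged 3V, whose 92.9 CPM lay above the 63.0 to 75.8 CPM of the other 5.

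H1-2 spread more in 4OHT siSMARCA4 than in any other group. Its levels were 12, 16.7 and 28.0 CPM in the 3 libraries tagged V and 34.2, 36.0 and 41.2 CPM in the 3 tagged VM, so that the V libraries lay below the VM libraries. In DMSO siNT the V libraries, at 29.2 and 32.2 CPM, lay within the VM range of 27.1 to 42.2 CPM. All 4OHT siNT libraries carry the VM tag, and the labels do not say what the tag means. The knockdown effect was 0.41 (adjusted p = 0.192, edgeR) over all libraries, 0.65 (adjusted p = 0.0199) with the tag as a covariate and 0.83 (adjusted p = 4.11e-04) among VM libraries alone. Without the library of siRNA number 4 tagged 3V, H1-2 was at 0.57 (adjusted p = 0.0218), and at 0.82 (adjusted p = 0.00286) with the non-polyadenylated RNA covariate added to that fit.

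The siRNA numbers were compared in 1 fit, the knockdown of each number against the 4OHT siNT libraries of the same number. A difference between numbers thus also holds any difference between those siNT libraries. In 4OHT siNT, genes such as H2AC25, H2BC5, H2BC7, H2BC11, H2BC18 and H1-10 split by number without overlap, while H2BC12 and H2AC6 overlapped. The main fit held no term for siRNA number. For the knockdown effect, 1.06% of all genes tested differed between siRNA numbers 2 and 4, and 0 of the 42 histone genes did (edgeR's quasi-likelihood test, smallest adjusted p = 0.118), with 6 at an unadjusted p below 0.05. In the siRNA number 2 libraries alone, however, the knockdown called H1-10 (0.49, adjusted p = 0.00567), H1-10-AS1 (0.73, adjusted p = 0.0102), H2AC8 (0.51, adjusted p = 0.0203) and H1-2 (0.70, adjusted p = 0.00659) higher, none of them called over all libraries. H1-10 was also called with the non-polyadenylated RNA covariate and without the 4OHT siSMARCA4 library 4-3V (0.38, adjusted p = 0.0135, edgeR). The lowest p-values were those of H1-10-AS1, at 0.69 ± 0.22 with number 2 and -0.37 ± 0.22 with number 4, and for its antisense neighbour H1-10, at 0.46 ± 0.13 and -0.08 ± 0.13 (log2, SE, adjusted p = 0.118 and 0.156 for the difference). H1-10 was at 54.8 to 62.1 CPM with number 2 and 65.1 to 75.6 CPM with number 4 in 4OHT siNT. In 4OHT siSMARCA4 it was at 71.1 to 85.6 CPM and 54.2 to 79.5 CPM.

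Among the gene lists, 3 (11.1%) of the 27 processing and transcription genes were called higher upon knockdown and 2 (7.41%) lower, beside 10.4% and 13.8% of all genes tested. SLBP went from 53.9 ± 5.64 to 68.7 ± 6.22 CPM (SD, n = 6 each), a rise of 0.35 on the log2 scale, CCNE1 rose by 0.34 and CDK2, the kinase that cyclin E activates, fell by 0.76. POU2F2 reached 295 ± 42.2 CPM, at 0.46 (adjusted p = 0.00882, edgeR). Of the 25 S-phase genes 5 (20%) were called higher and 2 (8%) lower, with a median of -0.06, among them RRM2, which rose by 0.90 from 4.7 to 8.82 CPM. Of the 11 tested variant genes H3-3A alone was called, at 0.28, and of the 22 chaperones 3 (13.6%) were called higher and 3 (13.6%) lower, with HIRA falling by 0.35 on the log2 scale. Of the 12 tested RNAs without a poly(A) tail 1 was called higher and 1 lower, with a median of 0.26, and without the 4OHT siSMARCA4 library of siRNA number 4 tagged 3V 1 of 11 was called higher and 2 lower, with a median of -0.36.

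Against DMSO siNT, 4OHT siSMARCA4 gave 18 genes called higher and 5 lower of 42, where 26.5% of all genes tested were called higher and 28.6% lower, and the median was 0.36 over the 42 genes against -0.01 over all genes. Without the low-count filter the median was 0.10 over the histone genes with any count and 0 over all genes. This comparison shares its libraries with both others and is no independent repeat of them. The largest rises were in H2BC26 at 2.66, H2AC8 at 2.03, H4C5 at 1.90, H2AC19 at 1.89 and H2AC25 at 1.77, and the falls were in H2BC9 at -1.74, H4C11 at -1.14, H2AC11 at -0.83, H4C14 at -0.76 and H4C12 at -0.75. The calls of H2BC9 and H4C14 held under all 24 alternatives and that of H4C11 under 23. H4C11 and H4C12 share most of their read-length stretches and were not summed to 1 row, so their separate falls are uncertain. The call of H2AC11 (adjusted p = 0.0486) held under 6 of 24 and was lost without any of 7 of the 11 libraries, and that of H4C12 (adjusted p = 0.0241) held under 17 and was lost without the 4OHT siSMARCA4 libraries 2-1VM, 2-3VM or 4-2V in turn. Among the genes called higher, H2BC7 at 1.18 (adjusted p = 0.0406) held under 9 of 24 and was lost without any of 9 of the 11 libraries. H2BC18, which was called higher in 4OHT siNT, was at 0.39 and not called here (adjusted p = 0.309).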

How the data were processed

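RNA was extracted from 17 IMR90 ER:RAS samples and poly(A)-selected libraries were sequenced as paired 110-base reads. The authors trimmed reads with Cutadapt 4.7, aligned them to GRCh38 with HISAT2 2.2.1 (version per the processing notes), and counted genes and repeats with TElocal, sharing multi-mapped reads by maximum likelihood. The deposited values are estimated counts (expected counts), 1 table per library, in whole numbers and not normalised by the authors. Depth is 39109479 to 68978119 counts per library, and intervals of genes at few counts are wide.

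From these, genes joined with 1026 repeat subfamilies were filtered (filterByExpr, minimum count 10, total 15), scaled by TMM and tested with edgeR 4.0.16 in R 4.3.3 (quasi-likelihood, 1 term per group, all 17 libraries, Benjamini-Hochberg over 19473 genes). DESeq2 1.42.0, other scaling, filters, covariates, library subsets, summed near-identical pairs and leaving out each library were alternatives. Counts of alternatives under which a call held leave out 1 further fit, chosen after seeing the data. The fit was also run on simulated counts, the outcome of which is not reported here. Named genes are those at a mean of at least 1 CPM in some group, plus, for each comparison, up to 5 called genes that rose most and up to 5 that fell most, 1 of which is not reported here. Gene lists cover RNAs without a poly(A) tail, histone pre-mRNA processing and transcription, variants, chaperones, S phase and cell type markers. The members and lists were chosen with earlier results of these data known. Gene models, transcripts and exon lengths came from GENCODE 44, which holds 62700 of the gene IDs in the tables. The study's methods name an earlier Ensembl annotation for counting, so the models behind the counts, and with them the levels per kb and the split by annotated 3′ end, are uncertain. Promoters came from RefSeq.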

Additional observations from a re-analysis of the deposited data

Results flagged for a closer look

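Each of 35 quantities (32 named genes, the summed histone genes, the summed RNAs without a poly(A) tail and the mitochondrial share) was searched in each group for 1 library far from the others by Dixon's gap test, 105 sets of values in all. Chance flags about 1 in 20 such sets, and 4 were flagged. In 4OHT siSMARCA4, the library of siRNA number 4 tagged 3V had the highest H4C8 level, 36.5 CPM against 26.2 to 29.6 CPM in the other 5, and the highest sum of non-polyadenylated RNAs, 79.0 CPM against 18.8 to 28.1 CPM. In the same group, H4C12 was highest in the library of siRNA number 2 tagged 3V, at 0.695 CPM against 0.217 to 0.329 CPM. H4C11, which shares most of its stretches with H4C12, was at 0.207 CPM in that library and 0.158 to 0.489 CPM in the others. In DMSO siNT, H2AC18 was highest in the library of siRNA number 4 tagged 3VM, at 23.3 CPM against 12.7 to 15.1 CPM. Its near-identical copy H2AC19, between which the counting can move reads, was lowest in that library, at 4.65 CPM against 5.81 to 8.05 CPM. The sum of the 2 copies was not searched. The cause of none of these was tested.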

How the results depend on the processing

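After 4OHT, the count of histone genes called higher was 15 to 21 under every alternative planned (19 to 21 when 1 library was left out), against 20. Genes called lower, 4 in the comparison as reported, numbered 8 with no low-count filter, which tests more genes, 2 with the non-polyadenylated RNA sum as a covariate and 0 in siRNA number 4 libraries alone, and 3 to 4 with 1 library left out. Calls over all genes in either direction numbered 10601 of 19473 as reported and 11039 of 43519 with no filter. With the non-polyadenylated RNA covariate they numbered 9652 of 19473, and in siRNA number 4 libraries 8555 of 19909. In the siRNA number 4 libraries, a smaller set, H2AC11 reversed to 0.0733 (adjusted p = 0.897) and SMARCA4, at 0.44 in all libraries, was at 0.33 (adjusted p = 0.227). For the knockdown, genes called higher, 2 as reported, numbered 4 in VM libraries only, 6 in siRNA number 2 libraries, 0 in siRNA number 4 libraries, 1 with counts of sparse repeats far from genes as a covariate, and 1 to 3 with 1 library left out. Genes called lower, also 2, numbered 1 with no filter, 4 with V or VM as a covariate, 1 in siRNA number 2 and 1 in siRNA number 4 libraries, 1 with the sparse-repeat covariate, 5 when the fit held only the groups compared, and 1 to 4 with 1 library left out. Knockdown calls over all genes numbered 4703 of 19473 as reported and 5303 of 19678 in VM libraries only. They numbered 4479 of 19588 in siRNA number 2 libraries, 1198 of 19909 in siRNA number 4 libraries and 1343 of 19473 with the sparse-repeat covariate. Against DMSO siNT, genes called higher ran from 16 to 19, and genes called lower, 5 as reported, numbered 12 with no filter, 3 in siRNA number 2 libraries, 2 in siRNA number 4 libraries, 3 with the non-polyadenylated RNA covariate and 3 to 6 with 1 library left out. Calls over all genes here numbered 10725 of 19473 as reported, 11235 of 43519 with no filter and 10998 of 19588 in siRNA number 2 libraries. They numbered 7615 of 19909 in siRNA number 4 libraries and 9716 of 19473 with the non-polyadenylated RNA covariate. An alternative chosen after seeing the data, the non-polyadenylated RNA covariate without the 4OHT siSMARCA4 library of siRNA number 4 tagged 3V, called 13 higher and 1 lower after 4OHT, 4 and 1 upon knockdown, and 16 and 3 against DMSO siNT. Its number of calls over all genes is not given here. The cause of these changes in the counts of calls was not tested.

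With the replicate tag as a block (replicate block), 21 genes were called higher and 3 lower after 4OHT, 3 and 3 upon knockdown, and 17 and 4 against DMSO siNT. Deviations of libraries with the same siRNA number and tag correlated at -0.45, -0.308 and 0.208 after 4OHT, at 0.0524, 0.297 and -0.105 upon knockdown and at 0.058 against DMSO siNT, so the tags were not taken as pairs.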
